A study of Salmo salar with 40 samples.

Results

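Liver transcripts of 4 gene entries that encode brakes on growth were followed across 40 Atlantic salmon. The entries are 4ebp, 4ebp_1 and 4ebp_2, which the deposited table describes as proteins that bind the translation initiation factor eIF4E, and LOC106592479, described as a DDIT4 protein-like gene. They were picked by name out of the 79140 entries of the table, with their behaviour in these fish already known, so that their own changes are given as description, with no p, and nothing is read from how many of them were called. All 4 passed the filter on low counts that left 30397 entries for testing.

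When it is not phosphorylated, a 4E-BP protein holds eIF4E, the factor that grips the cap of messenger RNA, and so restrains cap-dependent translation. The kinase complex mTORC1, which is active when nutrients and insulin are plentiful, phosphorylates 4E-BP and releases eIF4E. DDIT4, also called REDD1, is known from mammals as a stress-induced protein that lowers mTORC1 activity through the TSC complex. Its inducers in mammalian tissue include glucocorticoids, hypoxia and energy shortage, and that list is not complete.

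Lufenuron, which belongs to the benzoylureas, keeps arthropods from building chitin and is fed to farmed salmon to control sea lice. The exposed groups were given lufenuron at 5 mg per kg (dose 0 in controls). At day 8, which was 1 day past the end of treatment, 10 control and 10 exposed fish were sampled, and 10 others of either kind followed at day 14, which was 7 days past it. Each library is 1 fish, its values were deposited as raw read counts per gene, and the tank, feeding and hour of sampling of each fish were not given in the sources used here. The p-values cover only the spread seen among these fish. Day 8 and day 14 fish therefore differ by whatever else differed between those days, and day cannot be told apart from it.

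Depth was 43.4 M to 76.8 M (mega) reads assigned to genes per fish. Levels are given in CPM, the read count scaled to a common library size by the TMM method, and are not compared between genes, because no transcript lengths were used. The liver label was checked against hepatocyte markers, which summed to 117500 CPM or more in every fish. With time 1 of 22 tested hepatocyte markers rose in controls and 6 fell in exposed fish, where the median of their sum went from 195100 to 159900 CPM. In 9 fish the exocrine pancreas markers summed to over 50 CPM. The group medians of that sum at day 8 were 8.85 CPM for controls against 26.9 CPM for exposed fish, and at day 14 they were 9.79 CPM against 42.4 CPM. With lufenuron 0 of 18 tested pancreas markers passed the test at day 8, and 0 at day 14. Of 2 defining pancreas enzymes ctrb had a median of 0 reads in each group. The other, cbpa1, had medians of 2.5 and 32.5 reads at day 8 and 1.5 and 59.5 reads at day 14, exposed fish having the higher. The red cell markers rose from a median sum of 1740 CPM to 2588 CPM in controls, where 10 of 23 tested entries passed the test, and from 1581 CPM to 2497 CPM in exposed fish, where 15 did. Of 13 tested gut and bile duct markers, 1 fell in controls and 8 fell in exposed fish over time, as did 8.97% and 17.2% of all tested genes. The median of their sum went from 64.2 to 68.2 CPM in controls and from 74.05 to 66.2 CPM in exposed fish. Of 8 tested leukocyte markers 1 fell in controls and 2 rose in exposed fish. In bulk tissue, fewer cells of a type and less RNA per cell cannot be told apart. The part of these cell types in the results was not tested; fits without the 9 pancreas-high fish are among the alternatives whose ranges are given.

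Transcripts of all 4 entries were lower at day 14 than at day 8, in control and in exposed fish alike. Protein and its phosphorylation are not part of these data, so that the levels do not show how active the brakes were. The mean level of 4ebp was 1.91 times as high at day 8 as at day 14 in controls, that of 4ebp_1 was 2.60 times as high, that of 4ebp_2 was 4.92 times as high, and that of the DDIT4-like entry was 17.0 times as high. In exposed fish the same ratios were 2.20, 2.00, 5.09 and 35.3. For the DDIT4-like entry in controls the ratio was 26.0 without day 14 fish 8, and the ratio of medians was 35.4, beside 40.6 in exposed fish. Within each day, the control and exposed groups overlapped for every one of the 4.

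**Figure D1:**
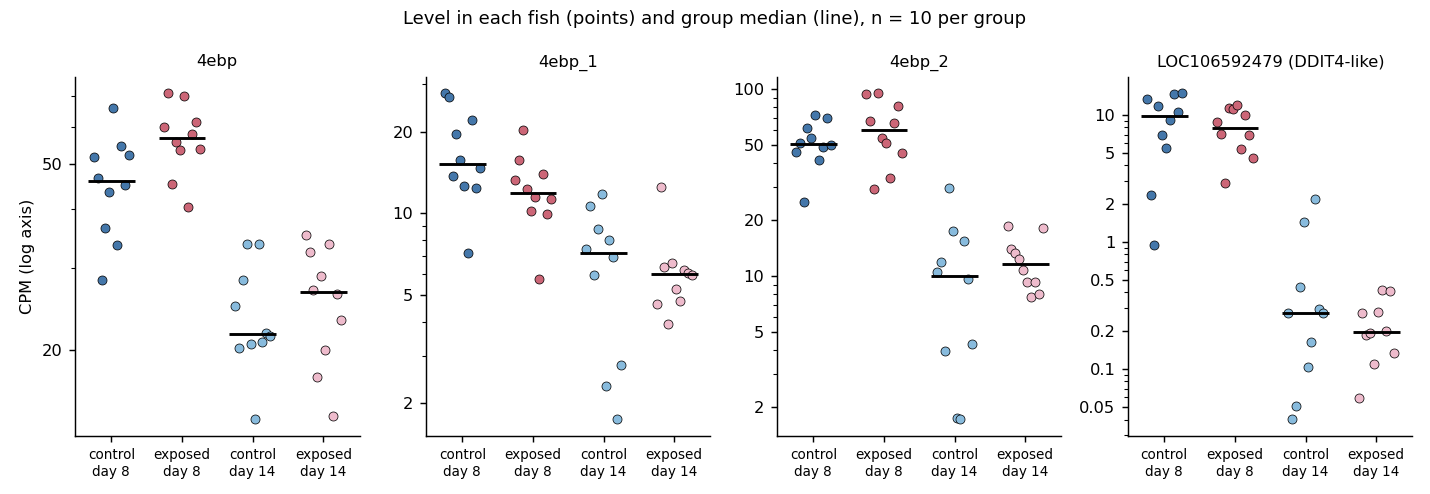
Level of each of the 4 entries in CPM on a log axis, 1 point per fish and a line at the group median, with 10 fish in each of the 4 groups. All 4 medians sit lower at day 14, and the DDIT4-like entry drops from medians of 9.80 and 7.93 CPM to 0.277 and 0.195 CPM.

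Among the eIF4E-binding proteins, 4ebp is described as a binding protein of eIF4E-1A. In control fish at day 8 its lowest, median and highest levels were 28.2, 45.9 and 65.7 CPM, and in exposed fish of that day they were 40.4, 56.9 and 70.7 CPM. At day 14 they were 14.2, 21.6 and 33.8 CPM in controls and 14.4, 26.6 and 35.2 CPM in exposed fish. Every exposed fish at day 14 lay below every exposed fish at day 8, whereas 8 of the 10 day 14 controls lay below the lowest day 8 control. The means at day 8 were 45.8 ± 11.1 CPM for controls and 56.9 ± 9.58 CPM for exposed fish (SD, n = 10 each), then 23.9 ± 6.24 CPM and 25.8 ± 7.01 CPM at day 14. The fitted change from day 8 to day 14 was -0.94 ± 0.16 on the log2 scale (SE) in controls and -1.14 ± 0.16 in exposed fish. Of the 4 entries, 4ebp varied least among fish, with a fitted biological coefficient of variation of 0.247 against 0.279 expected at its level.

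The entry 4ebp_1 is described as 4E binding protein 3-2. Its lowest, median and highest levels at day 8 were 7.14, 15.2 and 27.7 CPM in controls and 5.76, 11.9 and 20.4 CPM in exposed fish. At day 14 they were 1.75, 7.16 and 11.8 CPM in controls and 3.90, 5.99 and 12.5 CPM in exposed fish. Days overlapped in both kinds of fish, although 10 of 10 control fish and 9 of 10 exposed fish at day 14 lay below the day 8 median of their kind. The fitted change was -1.38 ± 0.27 in controls and -0.9996 ± 0.27 in exposed fish. The control fish numbered 6, 9 and 10 at day 14 were lower than any exposed fish of that day, at 2.32, 1.75 and 2.78 CPM.

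The entry 4ebp_2 is described as 4E binding protein 3-1, the near namesake of 4ebp_1, and it fell furthest of the 3 binding proteins. Its lowest, median and highest levels at day 8 were 24.8, 50.8 and 72.3 CPM in controls and 29.2, 60.2 and 94.7 CPM in exposed fish. At day 14 they were 1.71, 10.0 and 29.6 CPM in controls and 7.76, 11.6 and 18.5 CPM in exposed fish. Exposed fish of the 2 days did not overlap, and in controls only the highest day 14 fish, number 4, exceeded the lowest day 8 fish. The fitted change was -2.30 ± 0.35 in controls and -2.35 ± 0.35 in exposed fish.

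Control fish at day 14 were far more uneven for 4ebp_2 than exposed fish of that day. Their highest level was 17.3 times their lowest, against 2.38 times in exposed fish, and their coefficients of variation were 81.7% and 31.8%. The 3 control fish with a recorded weight under 20 g, numbers 6, 7 and 10, had 1.73, 1.71 and 4.32 CPM and ranked 2, 1 and 4 from the bottom. For the other entries, in the same order, they ranked 1, 9 and 5 for 4ebp, 2, 7 and 3 for 4ebp_1, and 3, 4 and 5 for LOC106592479. By recorded length only fish 6 was clearly smaller, while fish 7 and 10 were close in length to heavier fish of the group. Whether those weights are right was not tested. Without these 3 fish the 4ebp_2 mean of 10.6 ± 8.66 CPM (SD, n = 10) became 14.0 ± 8.11 CPM (SD, n = 7), and its fitted fall from day 8 became -1.89. Body weight gave no relation that passed at day 8, where 8 relations between a member and weight were computed and the adjusted permutation p lay between 0.473 and 0.697 (two-sided, n = 10 fish each). No day 8 fish had a recorded weight under 20 g, so these relations cannot speak to weights that low.

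The DDIT4-like entry LOC106592479 stands upstream of the binding proteins in the pathway and changed most. At day 8 its lowest, median and highest levels were 0.950, 9.80 and 14.7 CPM in controls and 2.92, 7.93 and 12.1 CPM in exposed fish. At day 14 they were 0.0401, 0.277 and 2.19 CPM in controls and 0.0588, 0.195 and 0.421 CPM in exposed fish. In reads, the day 8 fish held 53 to 797 in controls and 123 to 720 in exposed fish, and the day 14 fish 2 to 121 and 3 to 34. Exposed fish of the 2 days did not overlap, and in controls 8 of 10 day 14 fish lay below the lowest day 8 fish.

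The control fish that broke ranks for LOC106592479 were few. At day 14, fish 8 had 2.19 CPM and fish 5 had 1.45 CPM, while the other 8 had at most 0.442 CPM. At day 8, fish 3 had 0.950 CPM, the lowest level of its group and below that of both of those day 14 fish. The fitted change from day 8 was -4.06 ± 0.51 in controls and -5.10 ± 0.55 in exposed fish. At the median day 14 count, counting error alone is 25.4% in controls and 29.5% in exposed fish, beside coefficients of variation between fish of 135% and 53.3%. The fitted biological coefficient of variation was 0.73, against 0.309 expected at its level.

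For scale, 19.3% of all tested genes changed over time in controls and 34.9% in exposed fish at an adjusted p under 0.05 (edgeR's quasi-likelihood test with Benjamini-Hochberg adjustment). All 4 entries were among the genes that fell, a direction shared by 8.97% of tested genes in controls and 17.2% in exposed fish, and since the entries were chosen with this known, nothing is read from the count. Ordered by fitted fold, LOC106592479 ranked 1 from the bottom of 30397 genes in controls and 2 in exposed fish, and 4ebp_2 ranked 72 and 195. These ranks are description for the same reason. The fold of LOC106592479 also rests on few day 14 reads, with medians of 15.5 in controls and 11.5 in exposed fish. Groups that did not overlap, with day 14 lower, were 0.47% of tested genes in controls, where no member did so, and 1.41% in exposed fish, where 3 of 4 did. Controls and exposed fish were sampled separately at each day, so that these comparisons over time share no fish with each other.

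**Figure D2:**
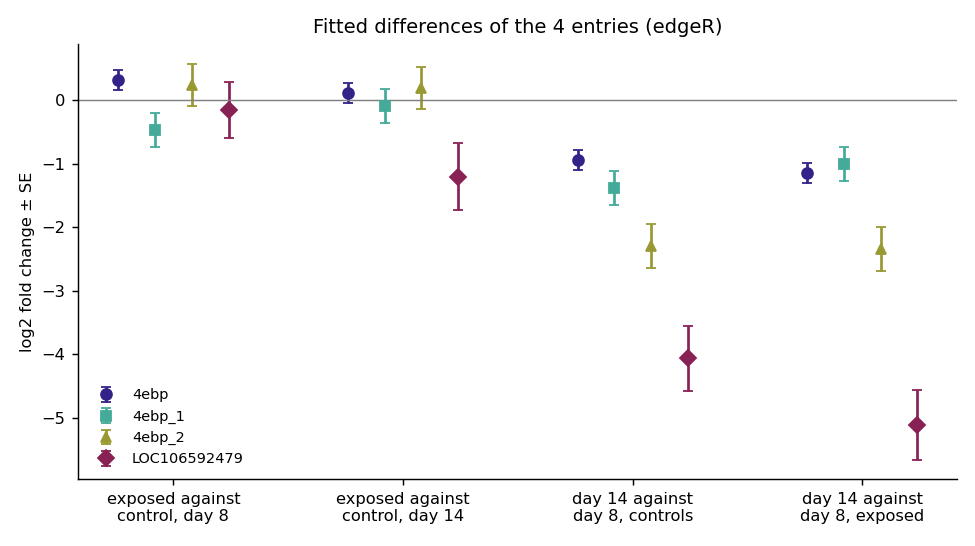
Fitted log2 fold change with its SE for the 4 entries, for exposed against control fish at each day and for day 14 against day 8 in each kind of fish. The lufenuron comparisons sit between -1.20 and 0.31, and the comparisons over time between -5.10 and -0.94.

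Between exposed and control fish of day 8 the log2 fold change was 0.31 ± 0.16 for 4ebp, and 8 of 10 exposed fish lay above the control median. It was -0.47 ± 0.27 for 4ebp_1, with 8 of 10 exposed fish below the control median, 0.24 ± 0.33 for 4ebp_2 and -0.16 ± 0.44 for LOC106592479. None of the 4 was called at day 8, when 1.63% of tested genes were (0.467% higher and 1.16% lower in exposed fish). Groups that did not overlap made up 0.0164% (exposed lower) and 0.00658% (exposed higher) of tested genes at day 8, and 0.00329% and 0.0% at day 14. Over the 8 alternative fits the fold ranged from 0.24 to 0.33 for 4ebp, from -0.60 to -0.43 for 4ebp_1, from 0.15 to 0.38 for 4ebp_2 and from -0.23 to 0.09 for LOC106592479, whose sign turned in 2 of them, without the pancreas-high fish and with the replicate block.

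At day 14 the log2 fold change was 0.11 ± 0.16 for 4ebp, -0.092 ± 0.27 for 4ebp_1, 0.19 ± 0.33 for 4ebp_2 and -1.20 ± 0.53 for LOC106592479. None of the 4 was called, and of all tested genes 0.0% were by edgeR's quasi-likelihood test, although 2437 (8.02%) reached 0.05 before adjustment and a DESeq2 fit called 20. For LOC106592479 the difference of mean log2 CPM was -0.41 over all fish and -0.09 without control fish 8, and 6 of 10 exposed fish were under the median of controls. For 4ebp_2 the fold turned from 0.19 to -0.21 without the 3 light control fish. For 4ebp it turned to -0.04 without the pancreas-high fish, and for 4ebp_1 to 0.10 with total counts as the only scaling. The fold of LOC106592479 ranged from -1.56 to -0.71 over the 8 alternative fits.

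The difference between the lufenuron effects of the 2 days was -0.20 ± 0.22 for 4ebp, 0.38 ± 0.38 for 4ebp_1, -0.050 ± 0.47 for 4ebp_2 and -1.04 ± 0.69 for LOC106592479 on the log2 scale. None was called, against 0.0493% of tested genes. Over 7 alternative fits these ranged from -0.38 to 0.07 for 4ebp, from 0.18 to 0.63 for 4ebp_1, from -0.45 to 0.34 for 4ebp_2 and from -1.40 to -0.71 for LOC106592479, so that the direction turned for 4ebp and 4ebp_2. A miss of the threshold does not show that exposed and control fish were alike. The SE was largest for the DDIT4-like entry, whose day 14 values rest on few reads.

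The table holds 4 more 4E-BP entries, eif4ebp2, LOC106580340, LOC106585258 and LOC106608462, all described as 4E-BP2 or 4E-BP2-like, and none of them passed the test in any of the 5 comparisons. At day 8 the entry eif4ebp2 averaged 29.4 ± 4.62 CPM for controls and 30.6 ± 5.02 CPM for exposed fish, and 28.0 ± 6.25 and 28.4 ± 5.81 CPM at day 14 (SD, n = 10 each). Its fold over time was -0.07 in controls (adjusted p = 0.735, edgeR) and -0.10 in exposed fish (adjusted p = 0.528). LOC106585258 had group means of 20.4, 20.2, 21.2 and 21.4 CPM. Over the 4 entries the log2 fold over time lay between -0.32 and 0.08, whereas over the 3 chosen entries it lay between -2.35 and -0.94. No test of that contrast is given, because the 3 were chosen with their values known.

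Of the 6 further DDIT4 entries, ddit4l_1 had 3 reads in all fish together and was not tested. Among the other 5, LOC106577395, also described as DDIT4-like, fell most. Its lowest, median and highest levels were 0.143, 1.48 and 2.18 CPM in day 8 controls and 0.0384, 0.141 and 0.650 CPM in day 14 controls. In exposed fish they were 0.574, 1.19 and 2.53 CPM at day 8 and 0.109, 0.305 and 0.412 CPM at day 14, with no overlap between days. The log2 fold was -2.55 ± 0.40 in controls (adjusted p = 2.22e-05, edgeR) and -2.24 ± 0.39 in exposed fish (adjusted p = 2.1e-05), and 10 of 10 day 14 fish lay below the day 8 median in each. It resembles LOC106592479 in name, and how the counting divided reads between near-identical copies is unknown, so that values of single copies are uncertain.

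The entry ddit4l, a DDIT4-like paralogue that in mammals also lowers mTORC1 activity, averaged 8.01 ± 3.93 CPM in day 8 controls and 3.95 ± 3.16 CPM in day 14 controls. Its fall of -1.02 ± 0.32 passed (adjusted p = 0.0198, edgeR), but not when only the compared groups were fitted (-1.01 ± 0.37, adjusted p = 0.0574) or without the pancreas-high fish (-1.001 ± 0.36, adjusted p = 0.0602). In exposed fish its fold was -0.58 ± 0.31 (adjusted p = 0.149), and whether the fold differs between the 2 kinds of fish is the difference of lufenuron effects, 0.44 ± 0.44 (adjusted p = 0.785). LOC106577211 stood at 0.69 ± 0.27 in controls (adjusted p = 0.0678) and 0.53 ± 0.27 in exposed fish (adjusted p = 0.132), and did not pass. LOC106612111 and ddt4l passed in no comparison, and ddt4l was at 0 reads in at least 1 fish of every group. No relative was called with lufenuron at either day.

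**Figure D3:**
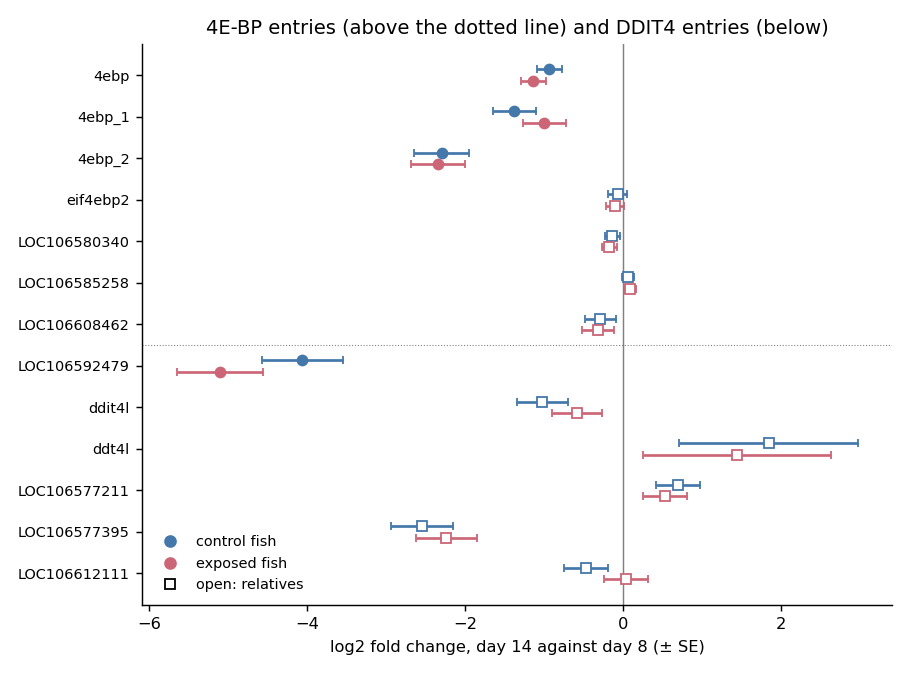
Log2 fold change from day 8 to day 14 with its SE, in control fish (blue) and exposed fish (red), for the 4 chosen entries (filled) and their 9 tested relatives (open). The 4E-BP2 entries lie between -0.32 and 0.08, and LOC106577395 at -2.55 and -2.24 has the lowest values among the relatives.

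The cap-binding machinery, in which 4E-BPs bind eIF4E, was measured as well. Its list (eIF4E, eIF4G, eIF4A and their partners and regulators) held 60 tested entries, so that its counts are not those of eIF4E alone. Of these entries 17 rose and 6 fell over time in controls and 27 rose and 10 fell in exposed fish. The 7 pathway lists, like the members, were chosen with earlier results of these data known. Their shares are therefore description, and no theme is read from them. Every entry that matched a listed gene was counted, so that copies of the same gene count separately and entries outnumber genes. The background was 10.4% rising in controls and 17.7% in exposed fish, against 28.3% and 45.0% of this list. The list's median log2 fold was 0.16 and 0.21, against medians of all genes of -0.0046 and -0.029. The rises in controls numbered 11 with total counts as the only scaling and 9 without the pancreas-high fish. The entry LOC106587155, described as eIF4G2-like, went from 27.8 ± 6.61 to 51.7 ± 13.3 CPM in controls (log2 fold 0.89 ± 0.17, adjusted p = 0.000233, edgeR). The eIF4G2-like entries are named for their small p. Binding to eIF4E is not part of these data, so their rise is not read as one of the machinery bound to eIF4E. LOC106562105, another eIF4G2-like entry, rose by 0.56 ± 0.12 in controls (adjusted p = 0.0011) and by 0.80 ± 0.12 in exposed fish (adjusted p = 2.4e-06).

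With lufenuron at day 8 no entry of this list passed, and the 2 entries with the smallest p, both described as eIF4E or eIF4E-like, had lower means in exposed fish. The entry if4e averaged 23.8 ± 10.9 CPM for controls and 13.4 ± 3.89 CPM for exposed fish, a log2 fold of -0.83 ± 0.27 (adjusted p = 0.0933, edgeR), and LOC106577251 averaged 9.97 ± 3.58 and 5.89 ± 1.70 CPM, a fold of -0.76 ± 0.23 (adjusted p = 0.0723). In each case 10 of 10 exposed fish lay below the control median. DESeq2 called 2 falls in this list at day 8. The comparisons over time share these day 8 fish. The course of the pair over time, chosen for naming after the values were seen, was a rise of 1.45 ± 0.27 for if4e in exposed fish (adjusted p = 5.08e-05) and 0.61 ± 0.26 in controls, which did not pass (adjusted p = 0.0966). LOC106577251 rose by 1.48 ± 0.23 in exposed fish (adjusted p = 4.04e-06) and by 0.71 ± 0.23 in controls (adjusted p = 0.0228). At day 14 the means of exposed and control fish were 36.8 and 36.5 CPM for if4e and 16.4 and 16.3 CPM for LOC106577251.

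On the kinase side of the pathway there were 70 tested entries for the mTOR complexes and their regulators. Of these, 4 rose and 8 fell over time in controls (5.71% and 11.4%, against 10.4% and 8.97% of all tested genes). In exposed fish 9 rose and 12 fell (12.9% and 17.1%, against 17.7% and 17.2%). With total counts as the only scaling the split in exposed fish turned to 22 rising and 5 falling. The entries named next had the smallest p and do not stand for the list. LOC106609967, described as ribosomal protein S6 kinase beta-2-like, a kinase that mTORC1 activates, fell from 9.17 ± 1.27 to 5.91 ± 1.20 CPM in controls (log2 fold -0.63 ± 0.11, adjusted p = 5.99e-05, edgeR) and by 0.87 ± 0.11 in exposed fish (adjusted p = 5.96e-08). LOC106605136, a Rag GTPase C-like entry of the amino acid input to mTORC1, fell by 0.88 ± 0.18 in controls (adjusted p = 0.000635). LOC106589523, described as elongation factor 2 kinase-like, an enzyme that slows elongation, fell from 49.5 ± 13.6 to 15.8 ± 5.12 CPM in exposed fish (log2 fold -1.65 ± 0.22, adjusted p = 2.27e-07). At day 8, LOC106569928, a DEPTOR-like entry whose mammalian counterpart inhibits mTOR, was lower in exposed fish, at 105 CPM against 181 CPM (log2 fold -0.78 ± 0.19, adjusted p = 0.0277). That call was lost with a replicate block and without the pancreas-high fish.

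Insulin and energy inputs counted 54 tested entries. Of these, 3 rose and 14 fell in controls (5.56% and 25.9%, against 10.4% and 8.97% of all tested genes). In exposed fish 9 rose and 12 fell (16.7% and 22.2%, against 17.7% and 17.2%). LOC106586664, insulin receptor substrate 2-like, an adaptor that carries the insulin signal, fell from 38.1 ± 9.80 to 20.7 ± 9.16 CPM in controls (log2 fold -0.88 ± 0.19, adjusted p = 0.00117, edgeR). Its means in exposed fish were 36.5 ± 3.92 CPM at day 8 and 31.7 ± 9.90 CPM at day 14. LOC106567700, described as the regulatory subunit alpha of PI3-kinase, fell by 0.95 ± 0.18 in controls (adjusted p = 0.000272). In exposed fish the entries with the smallest p were subunits of AMPK, the cell's energy sensor, and both fell. LOC106574322, gamma-1-like, fell by 1.50 ± 0.25 (adjusted p = 9.01e-06) at a low level, from 1.13 to 0.397 CPM. LOC106600564, beta-2-like, fell by 0.70 ± 0.13 (adjusted p = 5.59e-05), from 5.74 to 3.54 CPM. No entry of this list passed with lufenuron at day 8.

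Genes known from mammals as targets of FOXO factors or as fasting genes leaned to falls over time. Of 52 tested entries 4 rose and 16 fell in controls and 2 rose and 24 fell in exposed fish, which is 30.8% and 46.2% falling against a background of 8.97% and 17.2%. The falls in controls numbered 10 without the 3 light fish and 10 without the pancreas-high fish, and those in exposed fish 15 with total counts as the only scaling and 14 without the pancreas-high fish. The cyclin-G2-like entry LOC106580043, a cell cycle brake, fell from 4.69 ± 1.12 to 2.00 ± 0.388 CPM in controls (log2 fold -1.23 ± 0.14, adjusted p = 1.64e-07, edgeR) and by 1.05 ± 0.14 in exposed fish (adjusted p = 2.25e-07). The entry LOC106609100, cyclin-dependent kinase inhibitor 1B-like, fell by 0.93 ± 0.15 and 1.10 ± 0.15 (adjusted p = 4.25e-05 and 4.95e-07).

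Glucocorticoid-induced genes, a class to which mammalian DDIT4 belongs, made up another of the 7 lists. Like the other lists it was chosen with earlier results of these data known, so that its shares are description. The symbols of this list also included the gene of the glucocorticoid receptor itself, and its entries outnumber its symbols, since copies of the same gene count separately. Of 38 tested entries 0 rose and 15 fell in controls, and 2 rose and 21 fell in exposed fish. That is 39.5% and 55.3% falling, against 8.97% and 17.2% of all tested genes. Whether glucocorticoids had a part in the fall of the DDIT4-like entry was not tested. LOC106612265, TSC22D3-like, known in mammals as a glucocorticoid-induced leucine zipper, fell from 55.1 ± 19.6 to 19.6 ± 6.78 CPM in controls (log2 fold -1.50 ± 0.23, adjusted p = 1.83e-05, edgeR) and by 1.61 ± 0.23 in exposed fish (adjusted p = 8.28e-07). LOC106569199, glutamine synthetase-like, fell from 767 ± 292 to 189 ± 97.7 CPM in controls (log2 fold -2.02 ± 0.28, adjusted p = 4.59e-06). LOC106567727, ZBTB16-A-like, fell by 3.45 ± 0.38 in exposed fish (adjusted p = 1.07e-08).

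With lufenuron at day 8, 2 entries of the glucocorticoid list rose, LOC106565346 (FKBP5-like, a regulator of the glucocorticoid receptor) by 0.70 ± 0.17 (adjusted p = 0.0293) and LOC106585360 (KLF9) by 1.69 ± 0.43 (adjusted p = 0.0352), both by edgeR. Neither passed without the pancreas-high fish, at folds of 0.79 ± 0.19 (adjusted p = 0.0773) and 1.99 ± 0.48 (adjusted p = 0.0785). The FKBP5-like call was also lost with total counts as the only scaling, and the KLF9 call without the filter, with the replicate block and with only the compared groups fitted. In that same comparison the DDIT4-like entry stood at -0.16 ± 0.44, and its sign turned in 2 of 8 alternative fits. Whether it differs from these 2 entries was not tested.

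Integrated stress response genes, which include the ATF4 targets that accompany restrained translation, leaned to rises over time. Of 49 tested entries 16 rose and 1 fell in controls and 15 rose and 2 fell in exposed fish. Rises made up 32.7% and 30.6%, against 10.4% and 17.7% of all tested genes. Falls made up 2.04% and 4.08%, against 8.97% and 17.2%. The entry atf3_1, a stress transcription factor, went from 1.19 ± 0.638 to 4.24 ± 2.13 CPM in controls (log2 fold 1.82 ± 0.28, adjusted p = 1.76e-05, edgeR). LOC106591110, ATF4-like, rose by 0.77 ± 0.15 and 0.78 ± 0.15 (adjusted p = 0.000331 and 7.62e-05). LOC106570297, asparagine synthetase-like, rose from 22.1 ± 11.0 to 82.6 ± 31.2 CPM in exposed fish (log2 fold 1.91 ± 0.34, adjusted p = 3.6e-05). At day 8 with lufenuron 1 entry rose, trib3, a pseudokinase target of ATF4, by 0.96 ± 0.25 (adjusted p = 0.0389), and that call was lost without the pancreas-high fish, without a filter on low counts, with total counts and with only the compared groups.

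Hypoxia-induced genes split. Of 36 tested entries 9 rose and 5 fell in controls and 9 rose and 8 fell in exposed fish. Rises made up 25.0% and 25.0%, against 10.4% and 17.7% of all tested genes. Falls made up 13.9% and 22.2%, against 8.97% and 17.2%. The transcript of hif1a, the oxygen-regulated transcription factor, fell by 0.44 ± 0.087 in controls (adjusted p = 0.000383, edgeR) and by 0.68 ± 0.087 in exposed fish (adjusted p = 1.48e-07). The enzyme pfkfb3, which drives glycolysis, rose by 1.86 ± 0.38 in controls (adjusted p = 0.00061), and LOC106590030, heme oxygenase-like, fell by 3.75 ± 0.60 in exposed fish (adjusted p = 6.68e-06). At day 8 with lufenuron p4ha2, a collagen-modifying enzyme, rose by 0.51 ± 0.14 (adjusted p = 0.0447), a call lost under 5 of the alternatives tried.

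**Figure D4:**
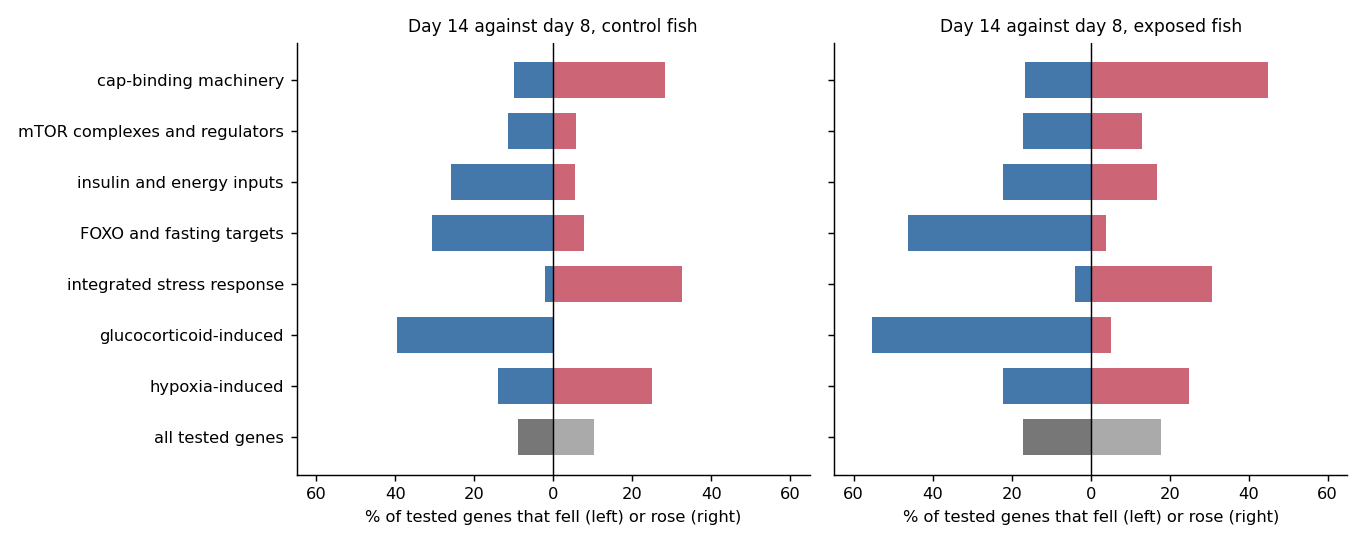
Percent of tested genes of each of the 7 pathway lists that fell (left) or rose (right) from day 8 to day 14, in control and exposed fish, with all tested genes in grey as background. The glucocorticoid-induced and the FOXO and fasting lists lean to falls, and the cap-binding and stress response lists to rises. The lists were chosen with earlier results of these data known, so that the shares are description.

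Fish differed within a group. All 6 pairs of entries had a positive pooled r, from 0.11 to 0.42. Of the 6 pairs of entries none was correlated past the threshold over the deviations of 40 fish from their group means (two-sided permutation test, adjusted over 6 pairs). The highest was 4ebp_2 with LOC106592479, at Pearson r = 0.42 (p = 0.0381, adjusted 0.114) and Spearman rho = 0.28 (p = 0.0952, adjusted 0.258). By group its r was 0.57 among control and 0.68 among exposed fish of day 8, then 0.55 among controls of day 14 and -0.76 among exposed fish of day 14, and without the 2 fish farthest from the median it was 0.39. The pair 4ebp and 4ebp_1 followed at r = 0.35 (p = 0.0375, adjusted 0.114) and rho = 0.27 (adjusted 0.258). In the control and exposed groups of day 8, r was 0.67 and 0.65 for 4ebp with 4ebp_2, and 0.47 and 0.57 for 4ebp with LOC106592479. At day 14 the same values were 0.16 and 0.22 for 4ebp with 4ebp_2, and -0.027 and -0.081 for 4ebp with LOC106592479. Their pooled r was 0.28 (adjusted permutation p = 0.201) and 0.17 (adjusted permutation p = 0.404).

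Each entry had other genes whose level followed it from fish to fish. Over the same deviations, and among 20163 named genes with a mean of at least 1 CPM, the 3 most alike are given by Pearson's r as description, since the points share libraries and the genes were picked for their r. For 4ebp they were traf4, a signalling adaptor, at r = 0.81, LOC106580778 (FAM57A-like) at 0.80 and LOC106571934 (nuclear receptor coactivator 3-like) at 0.80. For 4ebp_1 they were LOC106560272, like the circadian factor CLOCK, at 0.80, LOC106560783 (ornithine decarboxylase antizyme 2-like) at 0.76 and LOC106570755 (TMEM64-like) at 0.71.

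For 4ebp_2 the nearest were LOC106609294 and LOC106567289, both SOCS2-like, a feedback inhibitor of growth hormone signalling, at r = 0.88 and 0.83, and ghr1, a growth hormone receptor, at 0.84. The r with LOC106609294 was 0.98 in day 14 controls and 0.29 in day 8 controls. The mean levels of all 3 were lower at day 14 as well, ghr1 going from 105 to 38.0 CPM in controls and from 93.1 to 39.9 CPM in exposed fish. For LOC106592479 they were LOC106601031 (COQ10 homolog) at 0.80, LOC106573930 (GADD45 beta-like) at 0.75 and tisb, a factor that destabilises messenger RNA, at 0.73, and in day 14 exposed fish these values were 0.39, -0.31 and 0.03.

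**Figure D5:**
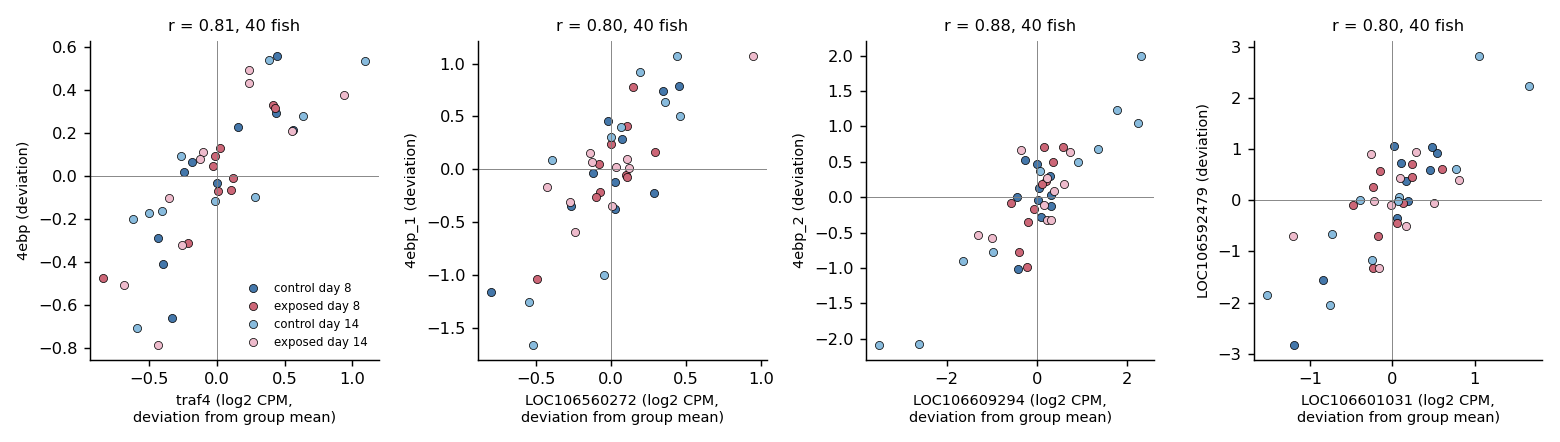
Deviation of each entry from its group mean (vertical, log2 CPM) against that of the gene most like it (horizontal), 1 point per fish over 40 fish and coloured by group. The r values are 0.81, 0.80, 0.88 and 0.80, and the day 14 control fish spread widest in the 4ebp_2 panel.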

How the data were processed

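Liver RNA of 40 fish was sequenced, and the table as deposited by the authors holds whole-number read counts, without normalization, for 79140 entries. HISAT2, Cufflinks, HTSeq and DESeq2 are named, without version or role, per the submitters' processing notes. The genome build, annotation and strand setting were not given in the sources used here. No coordinates or sequences are printed. Groups came from the labels, 10 fish each.

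The tools were R 4.3.3, edgeR 4.0.16, limma 3.58.1 and the package data.table, version 1.17.8. Counts of all 40 fish entered edgeR's robust quasi-likelihood fit, in which each group had its own mean, with TMM scaling and filterByExpr (minimum count 10, minimum total 15). This left 30397 entries with 99.9% of the counts. The 5 contrasts were lufenuron at each day, their difference, and day 14 against day 8 in controls and in exposed fish, with Benjamini-Hochberg adjustment over all entries and 0.05 as the threshold. Over all genes the biological coefficient of variation was 0.371. Depth ran from 43.4 M to 76.8 M reads, so that 1 CPM was at least 41.8 reads. Counting intervals cover counting error only. The 780 pairs of libraries were checked for duplicates and the closest pair differed by a chi-square of 50.4 per gene, far above sampling noise. The fit was tested on simulated data.

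The members and the lists were chosen with earlier results of these data known. Named were all members and measured relatives; of each pathway list, at day 8 up to 4 genes past the threshold with the smallest p, or up to 2 where none passed, and elsewhere up to 2 past the threshold; and for likeness the 3 genes with the highest r on log2 CPM with a prior count of 2. Lists were matched on symbols and the deposited descriptions; bnip3l entered the FOXO list by its suffix. Correlations used 100000 resamples.

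The alternatives tried were scaling by RLE or by total counts alone, no low-count filter, DESeq2 1.42.0, a replicate block, fits of the compared groups alone, a prior count of 0.5, and leaving out single fish, the 3 light control fish or the 9 fish with over 50 CPM of pancreas markers.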

Additional observations from a re-analysis of the deposited data

Results flagged for a closer look

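In 9 of 52 groups of 10 fish checked, counting the 4 entries and their 9 tested relatives in each of the 4 groups, the highest fish stood apart by Dixon's criterion. For normally distributed values chance flags about 1 in 20 groups. The criterion was applied to CPM, which are skewed for entries such as ddt4l, and the genes share fish, so that 9 is not read as an excess. Among the 4 entries this held once: for 4ebp_1, exposed fish 2 at day 14 had 12.5 CPM and the next fish 6.57 CPM. That fish also stood apart for LOC106608462 at 3.48 CPM, for LOC106612111 at 1.26 CPM and for ddt4l at 6.51 CPM. Exposed fish 9 at day 8 did so for LOC106577211 at 2.19 CPM and for ddt4l at 1.84 CPM, and exposed fish 3 of that day for LOC106585258 at 23.1 CPM. Among controls at day 14, fish 7 stood apart for ddit4l at 12.0 CPM and fish 4 for ddt4l at 31.1 CPM, against 1.74 CPM in the next fish.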

How the results depend on the processing

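The fall of the 4 entries from day 8 to day 14 kept its direction under every alternative run, and leaving out single fish moved the difference of mean log2 CPM of LOC106592479 between -4.80 and -4.26 in controls and between -5.12 and -4.82 in exposed fish. Genes called over the whole table numbered 494 with lufenuron at day 8, but 1048 with DESeq2, 231 with the replicate block and 34 without the pancreas-high fish. At day 14 they numbered 0, and 20 with DESeq2. For the difference between days they numbered 15, but 422 with total counts as the only scaling, 3 without the filter, 133 with DESeq2, 8 with the replicate block, 5 without the 3 light fish and 0 without the pancreas-high fish. Over time in exposed fish they numbered 10609, and 6608 without the pancreas-high fish. The other 236 values moved less: member folds by under 1 SD between fish and counts by at most 1.5 times, while correlations kept sign and call. Even so, of 92 alternative member folds with lufenuron, where no member was called at first, 8 turned sign, against 0 of 64 over time. The members were chosen with their behaviour known and the alternatives refit mostly the same fish, so that the 0 of 64 is description and no support for the fall. Of the list counts 62 moved by over 1.5 times and 562 did not; the cause was not tested, and leaving fish out also lowers the number of fish. Total counts shifted the median of all genes by 0.25 for the difference, 0.18 with lufenuron at day 14 and 0.19 over time in exposed fish (log2), and moved the share of calls that fell from 71.3% to 89.7% at day 8, from 46.4% to 60.9% over time in controls and from 49.3% to 24.3% in exposed fish. Over 60 same-numbered pairs of fish the correlation of deviations had a median of -0.0125 (range -0.24 to 0.297), and 10 exceeded 0.1. Fish with different numbers were not correlated for comparison, so this cannot decide whether the labels' shared replicate numbers pair the fish. Depth limits LOC106592479 at day 14, with as few as 2 reads in a fish.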
